A study of Mus musculus with 4 samples.

Results

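The 6 genes described here, Nkg7, Gzmb, Gzma, Ccl5, Xcl1 and Cxcr6, are best known from cytotoxic and innate-like lymphocytes. They were followed in single thymic regulatory T (Treg) cells, among 27998 genes counted in 8273 cells. The genes, and the splits of cells by Il2ra and by the T cell receptor-induced genes Nr4a3, Egr2 and Irf4, were selected on values measured in these cells: the genes' levels, their shares of positive cells and their co-detection. Levels and differences are therefore given as descriptions, with counting intervals and no test.

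Cytotoxic lymphocytes kill by releasing granules that hold granzymes, and NKG7 is a granule membrane protein that takes part in this release in mouse. Gzma and Gzmb encode the serine proteases granzyme A and granzyme B. Ccl5 encodes a chemokine that attracts T cells and other leukocytes, and Xcl1 encodes lymphotactin, the ligand of XCR1 on cross-presenting dendritic cells. Cxcr6 encodes the receptor for CXCL16 and is carried by natural killer T cells and tissue-resident T cells. In the thymus, innate-like T cells and XCL1 from medullary epithelium are familiar sources of these transcripts, while Treg cells there are usually recognised by Foxp3, Il2ra and other genes.

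The series compared thymic Treg cells of mice without Il2 (genotype IL2 o/o) and mice without Il15 (IL15 o/o) with those of wild types of each line (IL2 wt/wt and IL15 wt/wt), with 1 sample of each. All 4 groups carried the Rag2-Gfp and Foxp3-Thy1a reporters on the B6 background and were 3 weeks old. The sort took CD4+CD8-Thy1.1+GFP+ cells. Thy1.1 reports Foxp3 expression and GFP marks recently formed T cells, so the cells are young Treg cells. Whether a sample pooled several animals is not stated. Cell barcodes ended in 1 of 4 suffixes, taken as libraries 1 to 4. No label ties a suffix to a genotype, so the libraries are unassigned and knockout and wild-type cells were not set against each other.

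Libraries 1 to 4 held 1609, 2452, 2037 and 2175 cells with medians of 3857, 3640, 2501 and 3019 unique molecular identifiers (UMIs) per cell, and 27 barcodes occurred in more than 1 library. Library 3 stood apart. Il2ra, the alpha chain of the IL-2 receptor, was detected in 6.82% of its cells, against 39.2%, 39.4% and 32.2% in libraries 1, 2 and 4. All 15 mitotic genes listed summed to 109 CPM (UMIs per 1000000 UMIs) in library 3 and to 824 to 1061 CPM in the others, and the 4 globin genes summed to 1873 CPM in library 3 and to 0 to 6.21 CPM in the others. Foxp3 was detected in 419 cells only, and all 8 listed Treg genes together lay between 2643 and 3876 CPM. The sort excluded CD8+ cells, yet 855 cells (10.3%) held a UMI of Cd8a or Cd8b1. Of 16 listed markers of natural killer, natural killer T and gamma delta T cells, the 4 gamma delta receptor chain genes were not analysed here. The innate markers below therefore include no gene of the gamma delta receptor. Ncr1, Klrc1, Klra1 and Klra7 had no UMI in any cell. Klrb1c had 2 UMIs and Klrk1 had 7, all in 1 cell, Klrd1 had 8 UMIs in 4 cells, and Zbtb16 had 3 UMIs in 2 cells. Cd160 made up most of the summed innate signal, with 573 UMIs in 460 cells. The summed innate markers lay between 12.4 CPM in library 3 and 24.9 CPM in library 2.

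Promoter sequences are shown for Nkg7 and Xcl1, which were often found in the same cell, and for Gzma, whose UMIs lay mostly in another cluster of cells. They run 5′ to 3′ from 250 bases before to 50 bases after the RefSeq start (GRCm38.p6), with matches to the searched motifs in capitals. The Nkg7 window is chr7:43436888-43437187 on the plus strand. The Xcl1 window is chr1:164935473-164935772 on the minus strand. The Gzma window is chr13:113100932-113101231 on the minus strand.
Nkg7: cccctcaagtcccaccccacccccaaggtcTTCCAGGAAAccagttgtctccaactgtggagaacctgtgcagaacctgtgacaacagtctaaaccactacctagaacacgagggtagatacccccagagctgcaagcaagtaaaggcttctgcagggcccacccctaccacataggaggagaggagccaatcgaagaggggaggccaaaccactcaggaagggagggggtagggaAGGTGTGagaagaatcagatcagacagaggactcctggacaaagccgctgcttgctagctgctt
Xcl1: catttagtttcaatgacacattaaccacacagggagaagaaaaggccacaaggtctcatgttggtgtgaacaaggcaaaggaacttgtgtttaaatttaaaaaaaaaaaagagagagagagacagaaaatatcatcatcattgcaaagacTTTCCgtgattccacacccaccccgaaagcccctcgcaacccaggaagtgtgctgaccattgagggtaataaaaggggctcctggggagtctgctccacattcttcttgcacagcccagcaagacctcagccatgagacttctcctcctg
Gzma: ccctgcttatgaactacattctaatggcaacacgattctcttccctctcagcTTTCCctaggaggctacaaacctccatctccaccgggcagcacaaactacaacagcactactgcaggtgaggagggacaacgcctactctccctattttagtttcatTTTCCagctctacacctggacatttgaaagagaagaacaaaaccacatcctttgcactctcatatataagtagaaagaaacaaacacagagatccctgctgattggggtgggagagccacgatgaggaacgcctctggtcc

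The motifs searched on both strands were STAT (TTCNNNGAA), NFAT (GGAAA), AP-1 (TGANTCA), the NR4A element NBRE (AAAGGTCA), EGR (GCGTGGGNG), the T-box element (AGGTGTG) and the NF-kB consensus. The Nkg7 window held the STAT letters from base 31, overlapping NFAT letters from base 36, and the T-box letters from base 237, which is 14 bases before the start. The Xcl1 window held NFAT letters once, and the Gzma window held them at 2 places. Of 32851 RefSeq promoter windows of this length, 8.30% held the STAT letters, 61.3% the NFAT letters and 5.84% the T-box letters. The NR4A, EGR, AP-1 and NF-kB letters were in none of these 3 windows, and such letters occurred in 1.51%, 1.90%, 7.81% and 1.63% of all windows. These matches describe the sequence only.

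The 6 genes differed widely in abundance, and most Treg cells held none of them. Nkg7 (ENSMUSG00000004612, chromosome 7, 43437073 to 43438249, GRCm38) had 4627 UMIs in 1173 cells, or 14.2% of cells. Ccl5 (ENSMUSG00000035042, chromosome 11, 83525778 to 83530518) had 1413 UMIs in 511 cells, or 6.18%. Xcl1 (ENSMUSG00000026573, chromosome 1, 164931644 to 164935527) had 520 UMIs in 148 cells, or 1.79%. The remaining genes were rare. Gzma (ENSMUSG00000023132, chromosome 13, 113093825 to 113100981) had 130 UMIs in 51 cells. Cxcr6 (ENSMUSG00000048521, chromosome 9, 123806475 to 123811760) had 51 UMIs in 25 cells. Gzmb (ENSMUSG00000015437, chromosome 14, 56258838 to 56262260) had 36 UMIs in 8 cells, 25 of them in 1 cell. A minimum of 100 UMIs, set for calls, left Nkg7, Ccl5, Xcl1 and Gzma. Prf1, which encodes the pore-forming protein perforin, had 8 UMIs in 8 cells.

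The UMIs were unevenly spread over cells. The 10 cells richest in a gene held 8.26% of its UMIs for Nkg7, 13.4% for Ccl5, 43.7% for Xcl1 and 66.9% for Gzma. Cells with the gene were deep cells: the median depth was 6008 UMIs in Nkg7-positive and 2920.5 UMIs in Nkg7-negative cells, and 6861.5 UMIs in Xcl1-positive and 3117 UMIs in Xcl1-negative cells. The level itself also followed depth. Over 4 equal bins of cells within each library, from shallow to deep, Nkg7 stood at 25.1, 33.9, 100.04 and 228 CPM, Ccl5 at 8.12, 15.2, 46.4 and 59.5 CPM, and Xcl1 at 2.28, 4.66, 5.86 and 28.2 CPM. Il2ra did not follow this order, with 102, 145, 183 and 146 CPM. Ratios of Nkg7, Ccl5 and Xcl1 by Il2ra and by the receptor-induced genes are therefore given also with depth matched. Ratios of listed genes, with the split genes or with Nkg7, Ccl5, Xcl1 or Gzma, were stratified by library alone unless depth is named.

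Across the unassigned libraries, Nkg7, Ccl5 and Xcl1 were lowest in library 3, and Gzma was highest there. Nkg7 stood at 200, 168, 35.0 and 115 CPM in libraries 1 to 4, with 22.2%, 19.4%, 3.88% and 12.0% of cells positive. Ccl5 stood at 56.3, 41.95, 14.5 and 49.5 CPM, and Xcl1 at 15.8, 19.9, 7.70 and 15.2 CPM. Gzma had another order, with 5.07, 2.75, 6.12 and 2.87 CPM. The intervals of the highest and the lowest library stood apart for each of these 4 genes, with ratios of at least 1.5: 5.71-fold for Nkg7, 3.88-fold for Ccl5, 2.58-fold for Xcl1 and 2.23-fold for Gzma. The same held for 24.6% of 9279 genes with at least 100 UMIs. Neighbours in these orders often could not be separated: the intervals of Ccl5 overlapped between libraries 1 and 4, and those of Xcl1 between libraries 1, 2 and 4. Without library 3, Nkg7 alone still met this rule. Cells thinned to 1811 UMIs each, which kept 7447 cells, still had Nkg7 in 12.0%, 11.3%, 2.40% and 7.64% of cells. Cxcr6 had 19, 24, 1 and 7 UMIs, and Gzmb had 1, 32, 2 and 1. The plot of levels by library shows these values with their intervals.

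**Figure D1:**
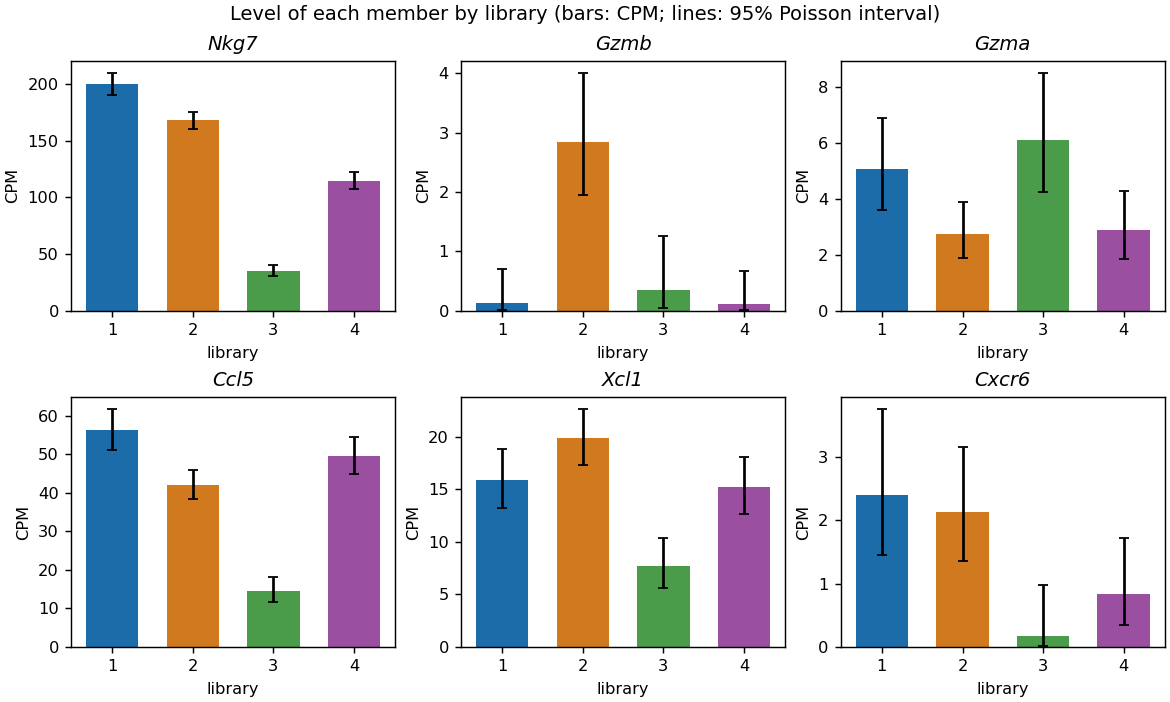
Level of each gene in CPM (vertical axis, a separate linear scale per gene) in libraries 1 to 4, with 95% exact Poisson intervals. Nkg7, Ccl5, Xcl1 and Cxcr6 are lowest in library 3, Gzma is highest there at 6.12 CPM, and the Gzmb bar of library 2 holds 32 UMIs, 25 of them from 1 cell.

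Cells in which Il2ra was detected had more Nkg7 and Xcl1. Of the 4 genes over the minimum, 2 were called higher and none lower, where a call asks for a ratio of CPM stratified by library of at least 1.5, an interval off 1 and the same direction in all 4 libraries. Among 9278 genes tested, 4.14% were called higher and 3.52% lower. Nkg7 stood at 248, 223, 104 and 172 CPM in Il2ra-positive cells of libraries 1 to 4, against 153, 113, 27.7 and 73.6 CPM in cells without Il2ra. Il2ra-positive cells were higher in every library, and the stratified ratio was 1.94 (interval 1.83 to 2.06). Xcl1 stood at 24.9, 34.7, 9.14 and 21.8 CPM with Il2ra, against 7.01, 5.28, 7.54 and 10.5 CPM without it, a ratio of 3.65 (2.95 to 4.50). In library 3 the positive side of Xcl1 rested on 5 UMIs and its interval overlapped that of the other side. Leaving out the 10 cells richest in Xcl1 gave a ratio of 2.01.

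Ccl5 and Gzma moved in different directions between libraries with Il2ra. Ccl5 stood at 54.2, 39.7, 27.4 and 70.1 CPM with Il2ra, against 58.3, 44.1, 13.2 and 34.7 CPM without it. Its ratio was therefore below 1 in libraries 1 and 2 and 2.09 and 2.02 in libraries 3 and 4, and 1.18 over all libraries (1.07 to 1.31). Gzma had 6, 11, 18 and 1 UMIs in Il2ra-positive cells, against 34, 20, 17 and 23 UMIs in cells without Il2ra. Its ratio was 0.67 (0.48 to 0.93) over all libraries, and 0.25 without library 3, where Gzma was higher with Il2ra. Of the 34 UMIs in library 1, 32 came from 1 cell, and without that cell the ratio was 1.15 (0.81 to 1.64). It was 1.06 without library 1, 1.24 without cells with Cd8a or Cd8b1 and 1.47 with each cell weighted alike. Cxcr6 had 26 UMIs in Il2ra-positive and 25 UMIs in Il2ra-negative cells. Gzmb had 28 and 8 UMIs on these sides, and 25 of the 28 came from 1 cell.

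Over all cells together, matching on depth took Nkg7 under the threshold and kept Xcl1 above it. Il2ra-positive cells were deeper, with medians of 4411 UMIs against 2783 UMIs in cells without it. With strata of library and depth decile, the ratio was 1.28 for Nkg7, 2.28 for Xcl1 and 0.88 for Ccl5. In cells thinned to equal depth neither gene was called, with ratios of 1.57 for Nkg7 and 1.99 for Xcl1. Matched in the same way, 622 cells held both Nkg7 and Il2ra against 577 expected (odds ratio 1.29), and 80 held both Xcl1 and Il2ra against 75.0 expected (odds ratio 1.18). For Ccl5 the observed 248 cells stood beside 249 expected. Mitotic genes moved with this split, with 8 of 15 called higher in Il2ra-positive cells (Cdk1 79.0 against 35.4 CPM) and none lower. Their part in the difference was not tested.

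Cells with a UMI of Nr4a3, Egr2 or Irf4, transcription factors that T cell receptor signals induce, were rich in Xcl1. Of the 4 genes over the minimum, Xcl1 was called higher and Gzma lower, where 3.63% of 9276 genes were called higher and 3.1% lower. Xcl1 stood at 65.6, 82.7, 50.8 and 69.3 CPM in cells with any of the 3 genes, against 9.07, 10.8, 4.34 and 7.89 CPM in cells with none. The groups did not overlap over libraries, and the stratified ratio was 8.05 (6.78 to 9.56). In numbers of cells, 38 of 730 cells with any of them (5.21%) held Xcl1, against 110 of 7543 cells with none (1.46%). The median depths on these sides were 4015 UMIs and 3085 UMIs, and the ratio was 6.35 with depth matched. Without the 10 cells richest in Xcl1 it was 4.02, still called, and after thinning it was 4.14 and no longer called.

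Nkg7 and Ccl5 showed smaller differences with the same split, and library 3 went the other way. Nkg7 stood at 318, 235, 31.4 and 143 CPM in cells with any of the 3 genes, against 184, 158, 35.3 and 111 CPM in cells with none (ratio 1.51, 1.398 to 1.63). Ccl5 stood at 104, 49.7, 4.84 and 67.3 CPM with them, against 49.8, 40.8, 15.3 and 47.1 CPM without (ratio 1.499, 1.30 to 1.72). Without library 3 both genes were called higher, with ratios of 1.53 and 1.55. With depth matched over all libraries the ratios were 1.19 for Nkg7 and 1.29 for Ccl5, and after thinning the ratio for Nkg7 was 0.99. Gzma had 2 UMIs in cells with any of the 3 genes, against 128 UMIs in cells with none (ratio 0.13, 0.031 to 0.516). Its ratio was 0.56 (0.13 to 2.41) without the double-positive-like cluster described below, a cluster in which Nr4a3 and Irf4 had no UMI. Gzmb had 0 and 36 UMIs on these sides. Cxcr6 had 6 UMIs with any of the genes and 45 UMIs with none.

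**Figure D2:**
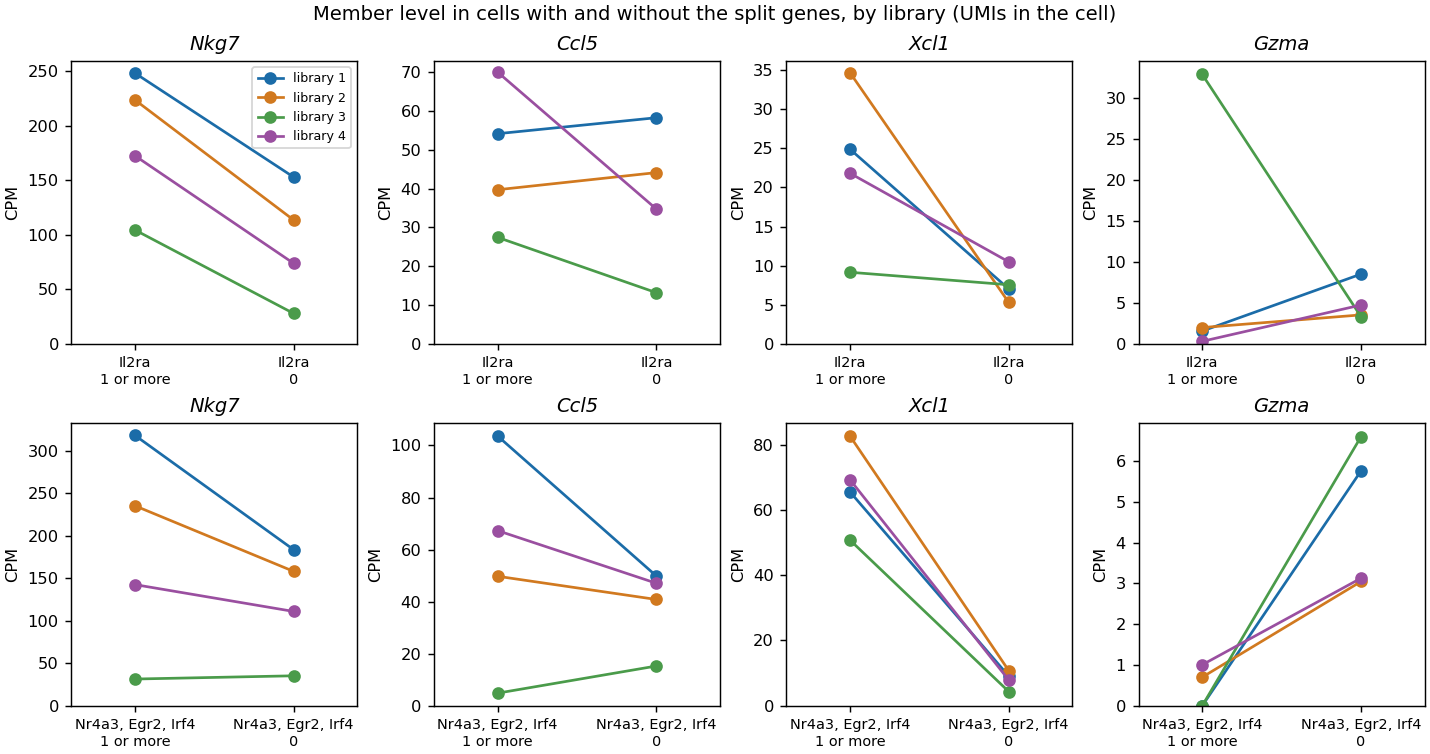
Level in CPM (vertical axes, linear) of 4 genes in cells with 1 or more UMIs (left points) and 0 UMIs (right points) of Il2ra (upper row) or summed over Nr4a3, Egr2 and Irf4 (lower row), 1 line per library. Every line falls from left to right for Nkg7 and Xcl1 with Il2ra and for Xcl1 with the T cell receptor-induced genes, and library 3 crosses the direction of the others for Gzma with Il2ra.

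The 3 receptor-induced genes gave different values when taken singly, a difference that was not tested. In 344 cells with Nr4a3, Xcl1 stood at 86.6 CPM, against 11.7 CPM in cells without it (ratio 7.11, 5.89 to 8.57, higher in 4 of 4 libraries). In 187 cells with Irf4 it stood at 101 CPM, against 12.2 CPM (ratio 7.72, 6.33 to 9.42, higher in 3 of 4 libraries). Of the 131 Xcl1 UMIs in the Irf4-positive cells, 80 came from 1 cell of library 2. Without that cell Xcl1 stood at 39.6 CPM with Irf4 (ratio 3.06, 2.29 to 4.07), and the ratio with Nr4a3 was 9.26. In 318 cells with Egr2 it stood at 22.5 CPM, against 15.3 CPM (ratio 1.403, 0.98 to 2.01). For Nkg7 the ratios were 1.51 (1.36 to 1.68) with Nr4a3, 1.98 (1.78 to 2.198) with Irf4 and 0.77 (0.66 to 0.90) with Egr2, and Nkg7 was lower with Egr2 in all 4 libraries. With depth matched, the ratios for Xcl1 were 5.60 with Nr4a3, 4.86 with Irf4 and 1.26 with Egr2, and those for Nkg7 were 1.22, 1.34 and 0.71. In numbers of cells matched in this way, 25 cells held Xcl1 and Nr4a3 against 9.32 expected, 13 held Xcl1 and Irf4 against 7.81 expected, and 9 held Xcl1 and Egr2 against 6.78 expected. Nr4a3 thus came first by cells and by depth-matched ratio, but the depth-matched intervals overlapped (4.64 to 6.76 with Nr4a3, 3.94 to 5.98 with Irf4). Irf4 came first by the library-stratified ratio only with the richest cell included. Of the 153 Xcl1 UMIs in Nr4a3-positive cells, 60 came from the 3 cells richest in Xcl1. Without the 10 richest cells the ratios were 4.97 (3.76 to 6.56) with Nr4a3 and 3.55 (2.53 to 4.99) with Irf4, again with overlapping intervals. When Nr4a3 was left out of the sum, Xcl1 was no longer called higher (ratio 5.18, with the direction not shared by all libraries). The Egr2-positive cells were shallower, with a median of 3385.5 UMIs, than those with Nr4a3 (4116) or Irf4 (5353).

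**Figure D3:**
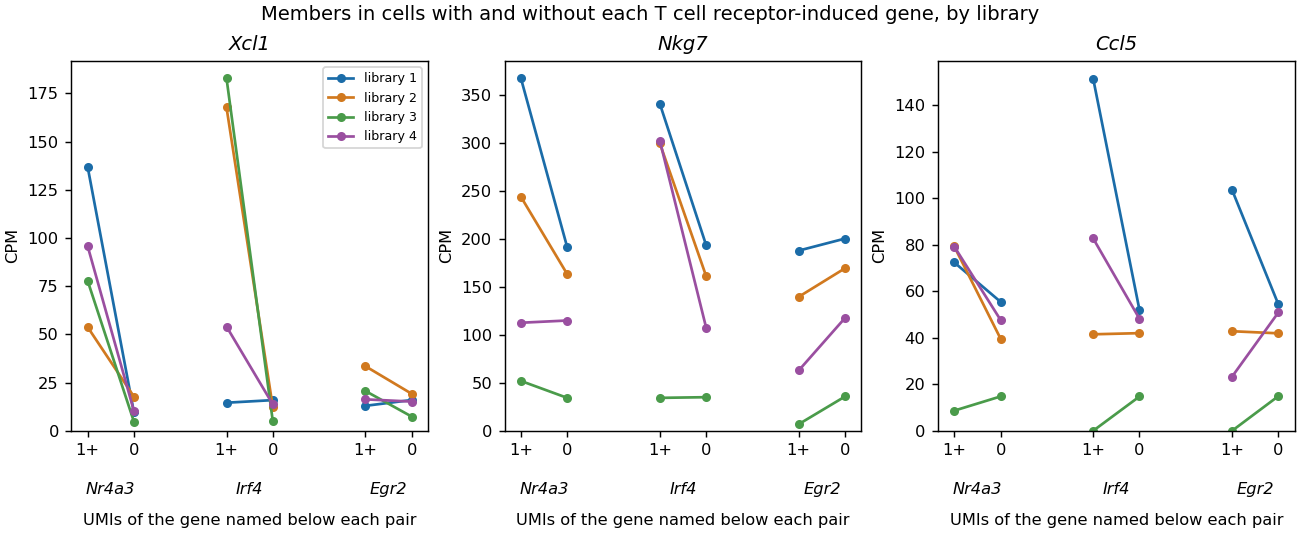
Level in CPM (vertical axes, linear) of Xcl1, Nkg7 and Ccl5 in cells with 1 or more UMIs (1+, left of each pair) and 0 UMIs (right) of Nr4a3, Irf4 or Egr2, 1 line per library. Xcl1 is higher with Nr4a3 in 4 of 4 libraries and with Irf4 in 3 of 4, and Nkg7 is lower with Egr2 in 4 of 4.

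Il2ra and the receptor-induced genes were partly found in the same cells, and Xcl1 was highest where both were detected. In 343 cells with both, Xcl1 stood at 103 CPM. It stood at 12.4 CPM in 2094 cells with Il2ra only, at 24.9 CPM in 387 cells with a receptor-induced gene only and at 6.05 CPM in 5449 cells with neither. Within Il2ra-positive cells the ratio for the receptor-induced genes was 8.16 (6.62 to 10.1), and within Il2ra-negative cells it was 4.02 (2.79 to 5.79), higher in all 4 libraries on each side. Of the 232 Xcl1 UMIs in cells with both, 140 came from the 3 cells richest in it. Without the 10 richest cells, 4 of which lay in this set, Xcl1 stood at 34.3 CPM with both and at 8.56 CPM with Il2ra only (ratio 3.97, 2.94 to 5.35). Median depths in the 4 sets were 5303, 4325, 3123 and 2767 UMIs, and with depth matched the ratio was 6.79 within Il2ra-positive and 3.35 within Il2ra-negative cells. For Il2ra, the depth-matched ratio of Xcl1 was 3.07 (1.96 to 4.82) where a receptor-induced gene was detected. Where none was, it was 1.26 (0.94 to 1.68), an interval that includes 1. Nkg7 stood at 264, 202, 129 and 85.6 CPM in the same 4 sets. Its ratio for Il2ra was 1.69 where a receptor-induced gene was detected, higher in 3 of 4 libraries, and 1.92 where none was, higher in all 4. With depth matched these ratios were 1.15 and 1.28. Ccl5 had another order, with 56.3, 50.2, 72.8 and 33.5 CPM.

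Nkg7 was the gene shared by most positive cells. Of 1537 cells with any of the 6 genes, 1200 held 1 of them, 300 held 2, 32 held 3 and 5 held 4. Of 15 pairs, 2 were co-detected, with a depth-matched odds ratio of at least 1.5 and more cells than expected in all 4 libraries. Nkg7 and Ccl5 were together in 252 cells against 161 expected (odds ratio 2.88, 2.33 to 3.55), or 49.3% of Ccl5-positive and 21.5% of Nkg7-positive cells. By library these were 78, 97, 11 and 66 cells, against 55.5, 61.8, 3.64 and 40.1 expected. Nkg7 and Xcl1 were together in 80 cells against 50.7 expected (odds ratio 2.68, 1.86 to 3.84), or 54.1% of Xcl1-positive and 6.82% of Nkg7-positive cells. By the same rule, 3.38% of genes were co-detected with Nkg7, 3.31% with Ccl5 and 9.34% with Xcl1.

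The 2 chemokines were not called together. Ccl5 and Xcl1 shared 28 cells against 22.9 expected (odds ratio 1.32, 0.85 to 2.05), with fewer than expected in libraries 1 and 3. Nkg7 and Gzma shared 15 cells against 12.8 expected (odds ratio 1.31, 0.66 to 2.61). Gzmb and Cxcr6 shared 3 cells against 0.0698 expected, Gzma and Cxcr6 shared 4 against 0.284, and Gzmb and Gzma shared 0 against 0.0772. Cxcr6 was also found with Nkg7 in 14 cells against 8.87 expected and with Ccl5 in 9 against 4.04. Library 3 had 1 Cxcr6-positive cell, and when it was left out 6 pairs met the rule, 4 of them with Cxcr6 and none with Gzmb. The share of genes co-detected with Cxcr6, Gzma and Gzmb was 1.35%, 10.7% and 0.69%.

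**Figure D4:**
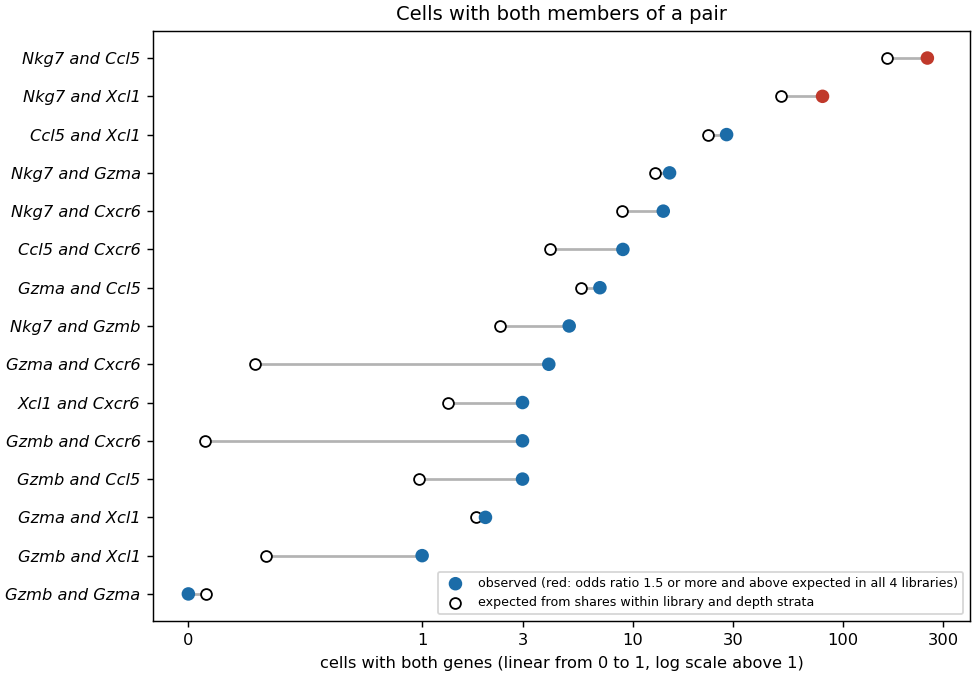
Number of cells with both genes of each of 15 pairs (filled points) beside the number expected from the shares within library and depth strata (open points), on a horizontal axis that is linear from 0 to 1 and logarithmic above. The red pairs, Nkg7 with Ccl5 (252 against 161) and Nkg7 with Xcl1 (80 against 50.7), were above expected in all 4 libraries.

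More UMIs of Nkg7 in a cell went with more of both chemokines. Ccl5 stood at 119 CPM in 279 cells with 5 or more Nkg7 UMIs, at 108 CPM in cells with 2 to 4, at 79.4 CPM in cells with 1 and at 23.0 CPM in cells with 0. Xcl1 stood at 73.0, 37.2, 16.2 and 7.25 CPM in the same order. Median depth fell in the same order, with 8092, 6214, 4823 and 2920.5 UMIs. Il2ra changed less, with 167, 179, 173 and 142 CPM. Foxp3 stood at 8.55, 10.7, 12.4 and 14.1 CPM in these cells. Its share of positive cells ran the other way, with 6.81%, 6.68%, 6.14% and 4.83%. With depth matched, 76 cells held both Nkg7 and Foxp3, against 74.7 expected (odds ratio 1.03).

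Clusters made without the 6 genes, Il2ra, Nr4a3, Egr2 and Irf4 among the variable genes placed the genes in different cells. Cluster 4 (747 cells, led, apart from Xcl1, by Utf1, Ung and Hk2) held 47.8% of Nkg7 and 64.8% of Xcl1 UMIs, at 430 and 65.4 CPM. Cluster 8 (234 cells, led by Tff1, Lgals3 and S100a6) had the highest share of Nkg7-positive cells (54.3%, at 360 CPM) and the highest level of Ccl5 (270 CPM). It also held 88.9% of Gzmb and 64.7% of Cxcr6 UMIs, in 4 of 8 Gzmb-positive and 9 of 25 Cxcr6-positive cells. Single cells held 25 of the 36 Gzmb UMIs and 12, 8 and 5 of the 51 Cxcr6 UMIs. Cluster 9 (102 cells, led by Rag2, Endou and Rag1) held 74.6% of Gzma UMIs at 281 CPM, 23.5% of its cells being positive, and no Xcl1 or Gzmb. Of its 97 Gzma UMIs, 32 came from 1 cell of library 1, and it held 24 of the 51 Gzma-positive cells. All 6 tested markers of double-positive thymocytes were at least 1.5-fold higher in cluster 9, which is therefore called double-positive-like. Cluster 1 (2582 cells, led by Tmie and Gprc5b) had the lowest Nkg7 level, 9.42 CPM in 2.01% of cells. The clusters also differed in depth, with median UMIs of 6346 in cluster 4, 5092 in cluster 8, 2334.5 in cluster 9 and 2403 in cluster 1. After thinning to equal depth, 27.0% of cells in cluster 4, 34.2% in cluster 8, 5.48% in cluster 9 and 1.16% in cluster 1 held Nkg7.

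**Figure D5:**
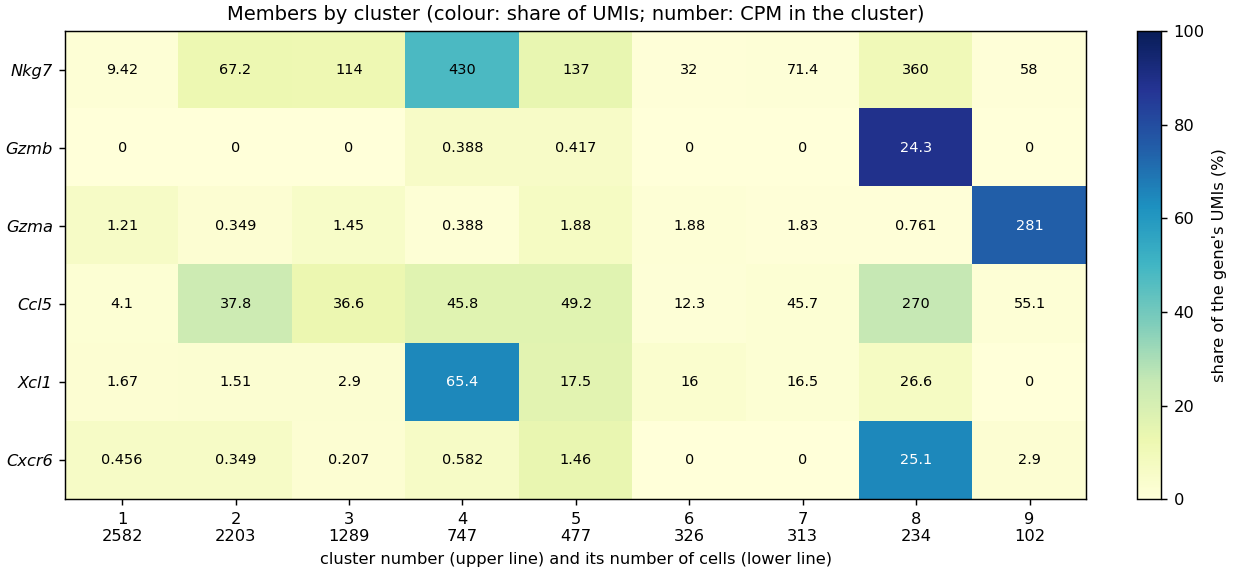
Share of each gene's UMIs (colour, in percent) and its level in CPM (printed number) in each of 9 clusters (horizontal axis, with numbers of cells). Xcl1 lies mainly in cluster 4 (64.8% of UMIs), Gzmb and Cxcr6 in cluster 8 (88.9% and 64.7%) and Gzma in cluster 9 (74.6%), while Ccl5 is spread and peaks in level at 270 CPM in cluster 8. In cluster 9, 32 of the 97 Gzma UMIs came from 1 cell.

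The levels of Nkg7 and Xcl1 in cluster 4 and of Nkg7 and Ccl5 in cluster 8 were not those of 1 library. In cluster 4, Nkg7 stood at 636, 447, 176 and 291 CPM and Xcl1 at 35.9, 83.3, 69.9 and 64.2 CPM in libraries 1 to 4. In cluster 8, Nkg7 stood at 360, 378 and 353 CPM and Ccl5 at 286, 207 and 328 CPM in libraries 1, 2 and 4. Library 3 had 13 cells there, too few for a level. Gzmb in cluster 8 stood at 2.53, 53.2 and 0 CPM in libraries 1, 2 and 4, so its level there was mainly that of library 2. Library 3 had 90 cells in cluster 4 against 170, 284 and 203 in libraries 1, 2 and 4, and 1125 of its cells in cluster 1. Cluster 6 (326 cells, led by Fosl2, Rsad2 and Egr2) had the highest Nr4a3 and Egr2, 108 and 140 CPM. Nkg7 stood at 32.0 CPM and Xcl1 at 16.0 CPM there. Xcl1 stood at 1.67, 1.51 and 2.90 CPM in clusters 1, 2 and 3, and at 17.5, 16.5, 26.6 and 0 CPM in clusters 5, 7, 8 and 9.

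Free RNA can put UMIs into cells that do not make a transcript, so shares were set beside cells with immature genes. Among 107 cells with 2 or more of Dntt, Rag1, Cd8a and Cd8b1 (median 2502 UMIs), 14 cells (13.1%, 7.34 to 21.0) held Nkg7, against 14.2% of all other cells (median 3145 UMIs). Of the 107 cells, 83 held Dntt or Rag1 (median 2228 UMIs) and 24 held neither (median 4838.5 UMIs). Nkg7 was in 9.64% (4.25 to 18.1) of the 83 cells, at 60.0 CPM. It was in 25% (9.77 to 46.7) of the 24 cells, at 214 CPM, and stood at 140 CPM in all other cells. The share of 14.2% in all other cells lay within both intervals. After thinning, shares over clusters lay between 1.16% and 34.2%, and the part of free RNA in them was not tested. Ccl5 was in 3 of the 107 cells (2.80%), against 6.22% of the others, and Xcl1 in 2 (1.87%), against 1.79%. Among the 83 cells with Dntt or Rag1, 1 held Ccl5 (1.20%, 0.03 to 6.53) and 0 held Xcl1 (0 to 4.35%).

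Gzma was higher in these 107 cells in all 4 libraries. It was in 21 of the 107 cells (19.6%, 12.6 to 28.4), against 30 of 8166 others (0.367%), at 120 CPM against 2.29 CPM. By library the positive cells were 2 of 18, 7 of 29, 4 of 25 and 8 of 35. They held 5%, 87.1%, 28.6% and 66.7% of Gzma UMIs, and in library 1 a single other cell held 32 of 40 UMIs. Gzma-positive cells had Dntt, the polymerase that adds bases at receptor joints, at 458 CPM, against 8.03 CPM in other cells (ratio 52.8). Among 6 tested double-positive genes, 4 were called higher and none lower with Gzma, where 5.25% of all genes were called higher and 3.69% lower. Of 8 Treg genes, 6 were lower and none higher, such as Gpr83 (28.4 against 162 CPM) and Tnfrsf4, a costimulatory receptor (395 against 1147 CPM). Mitotic genes moved too, with 10 of 15 higher.

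Granule, chemokine receptor and effector genes from listed sets marked Nkg7-, Ccl5- and Xcl1-positive cells in small numbers. With Nkg7, 2 of 13 tested granule genes were called higher and none lower, where 7.04% of all genes were called higher and 7.12% lower. Cst7, which encodes the protease inhibitor cystatin F, stood at 15.8 CPM in Nkg7-positive and 4.77 CPM in Nkg7-negative cells (ratio 3.02). Stx11, a syntaxin of granule release, had a ratio of 1.74. Of 6 tested chemokine and receptor genes, Ccr6, the receptor for CCL20, was 2.77-fold higher, Cxcl10 was 1.61-fold higher, and Ccr9, which guides thymocytes to CCL25, was lower (ratio 0.45). Of 9 tested effector factors, Bhlhe40 (2.43) and Rora (1.65) were higher and Id2 (0.61) was lower. Cd160, the only analysed innate marker with 100 UMIs, was higher (2.26), while Cd8a (0.51) and Cd8b1 (0.49) were lower. Epcam was higher too (1.57), as were 5 of 15 mitotic genes (Bub1 1.72), and their part in the Nkg7 signal was not tested. With depth matched, 6 of the 13 listed genes called higher with Nkg7 kept a ratio of at least 1.5 with an interval off 1. These were Cst7 (1.84), Ccr6 (1.92), Bhlhe40 (1.86), Cd160 (1.68), Cxcl10 (1.75) and Epcam (1.75). Stx11 stood at 1.27, Rora at 1.36 and all 5 mitotic genes below 1. No depth-matched share over all genes was computed beside this count. The median log2 ratio was 0.03 for granule genes, 0.17 for chemokine and receptor genes and 0.19 for effector factors, beside -0.04 over all genes.

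Ccl5-positive cells shared the 2 called granule genes of Nkg7-positive cells and, by library strata, had less of 2 Treg genes. Of 13 granule genes, Cst7 (24.8 CPM with Ccl5 against 5.38 CPM without, ratio 4.18) and Stx11 (1.60) were called higher and none lower, where 3.08% of all genes were called higher and 4.8% lower. Ccr6 (2.40) and Ccr8, the receptor for CCL1 (2.12), were higher, and Ccr9 (0.31) was lower. Bhlhe40 (2.12), Batf (1.77) and Rora (1.76) were higher among effector factors. Of 8 Treg genes, Foxp3 (7.10 CPM with Ccl5 against 14.0 CPM without, ratio 0.50) and Gpr83 (0.47) were lower and none was higher. Epcam, the only tested epithelial marker, was higher (ratio 2.97) and Krt5 and Krt8 were under the minimum. Cd79b, the only tested B cell marker, was higher too (ratio 1.73). The part of epithelial and B cell RNA in the Ccl5 signal was not tested. The 15 mitotic genes had a median log2 ratio of 0.93 with Ccl5. None of them was called, because the direction was not the same in all libraries, and their depth-matched ratios were not computed. With depth matched, the ratio was 2.65 for Cst7, 1.20 for Stx11 and 3.42 for Epcam. It was 0.61 (0.54 to 0.68) for Gpr83 and 0.69 (0.46 to 1.02) for Foxp3, an interval that includes 1. Ccl5 itself stood at 42.8 CPM in Foxp3-positive and 42.5 CPM in Foxp3-negative cells. The median log2 ratio was 0.16 for granule genes, 0.15 for chemokine and receptor genes and -0.03 for effector factors, beside -0.05 over all genes.

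Ccr8, Cd160 and Bhlhe40 were higher in Xcl1-positive cells. Ccr8 stood at 27.7 CPM with Xcl1 and 6.53 CPM without it (ratio 4.13), Cd160 at 61.1 and 15.6 CPM (ratio 3.79) and Bhlhe40 at 132 and 36.8 CPM (ratio 3.64). Of 13 granule genes, 2 were higher and none lower, Stx11 (2.13) and Srgn, the granule proteoglycan serglycin (1.56), where 7.28% of all genes were called higher and 9.25% lower. Ccr7 (0.66) and Ccr9 (0.37) were lower. Of the Treg genes Gpr83 (0.27) and Ctla4 (0.64) were lower. The median log2 ratio of the granule genes was below that of all genes, -0.20 beside -0.05, while the called granule genes were higher. With depth matched, the ratios were 2.90 for Ccr8, 2.80 for Cd160 and 2.70 for Bhlhe40, and 45 cells held Xcl1 and Cd160 against 20.2 expected (odds ratio 3.17).

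Some of the same listed genes were called with the split genes, with depth not matched. By library strata, 1 of 13 granule genes was higher with Il2ra (Stx11, ratio 1.64), where 4.14% of all genes were called higher and 3.52% lower. With Il2ra, Ccr8 (2.12), Bhlhe40 (2.83), Batf (1.81) and Hopx (1.66) were higher, and Ccr9 (0.38) and Id2 (0.64) were lower. Cst7 (1.10, 0.86 to 1.41) and Cd160 (1.05, 0.89 to 1.24) were not called with Il2ra. With the receptor-induced genes, Srgn stood at 747 CPM against 336 CPM in cells with none (ratio 2.18), and Stx11 (2.12) and Cst7 (1.86) were higher too, so that 3 of 13 granule genes were called higher and none lower, where 3.63% and 3.1% of all genes were. Bhlhe40 (3.76), Ccr8 (2.84), Batf (2.12) and Cd160 (1.57) were also higher, and Ccr9 (0.66) was lower. Median log2 ratios over granule genes were 0.22 with Il2ra and 0.19 with the receptor-induced genes, beside -0.03 and -0.02 over all genes.

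The genes most like each member, by the largest ratio between cells with and without it in the same direction in all 4 libraries, were mostly rare transcripts. For Nkg7 they were Gcg (11.5 against 1.20 CPM, ratio 8.91), Cavin1 (6.30) and Plac8 (6.08, with 53 of its 247 UMIs in 1 cell). For Ccl5 they were Tff1 (18.0 against 1.22 CPM, ratio 19.2), Ghrh (7.78) and Lgals3 (7.42). For Xcl1 they were Opn3 (11.05), Gpm6b (8.45) and Nr4a2 (57.0 against 7.97 CPM, ratio 6.88), a nuclear receptor of the same family as Nr4a3. For Gzma they were Plac8 (356 against 3.71 CPM, ratio 110), Dntt (52.8) and Ly6d (43.6). The 8 Gzmb-positive cells gave Irf8 (6.40), Ass1 (5.30) and Pmepa1 (4.95), and the 25 Cxcr6-positive cells gave Tacc2 (2.96) and Glmn (2.78), on 6 to 23 UMIs with Gzmb and on 5 and 8 UMIs with Cxcr6.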

How the data were processed

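Single-cell RNA was counted as UMIs in 4 samples. The count table was deposited by the authors with whole-number UMI counts, and a second deposited table holds log2 values for 9571 genes in 7231 cells. Tested against the counts, these are log2 of the count over a factor per cell plus 1. Cell Ranger 2.0.2, CASAVA 2.20, mm10 and R 3.4.1 stand in the submitters' processing notes. The members, splits and lists were chosen with earlier results of these data known. Symbols came from GENCODE M21 for 27645 identifiers.

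CPM ratios are Mantel-Haenszel ratios stratified by library, and co-detection odds ratios are stratified by library and depth decile, both with approximate 95% counting intervals. CPM have exact Poisson and shares exact Clopper-Pearson intervals, covering counting error only. Cells are not replicates and each genotype has 1 sample, so no p-value was computed. The code for ratios and co-detection was run on simulated Poisson counts without extra spread between cells. Such counts cannot show how the intervals hold where a few cells carry many UMIs. Clusters used scanpy 1.11.5 (2000 variable genes less excluded ones, 30 components, 15 neighbours, Leiden resolution 0.6). Doublets were not removed. The text names the 6 members, the split genes, up to 4 genes per list and contrast, and the 3 genes most like each member, of which 1 is not reported here. Single cells and the 3 receptor-induced genes taken singly were named after their values were seen. Alternatives covered scaling (edgeR 4.0.16), depth, cell filters, thresholds and left-out libraries. Python 3.11.15 was used.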

Additional observations from a re-analysis of the deposited data

How the results depend on the processing

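No paired analysis was possible because the labels give every group the same single replicate number and no label ties a library to a group. With 29 alternatives and 348 recomputed ratios, 270 stayed within the counting interval, 78 moved outside it and none of a called gene turned direction. Xcl1 and Nkg7 remained the members called higher with Il2ra under other scalings, cell filters, other minimums and without any 1 library. With depth strata 1 member was called (Xcl1), with detection at 2 UMIs 1 (Xcl1), with a fold of 2 also 1 (Xcl1), and with thinned cells 0. With Nr4a3, Egr2 or Irf4, 0 members were called after thinning, with detection at 2 UMIs or without Nr4a3 in the sum, and 2 (Nkg7 and Xcl1) without Egr2 in the sum, without cells with Cd8a or Cd8b1, or without the 2% deepest cells of each library, a filter chosen after seeing the data. Leaving out each library gave 1 to 3 members, with 3 (Nkg7, Ccl5 and Xcl1) without library 3. Co-detected pairs numbered 4 with library strata only, 2 to 6 when each library was left out, and 6 when 3 libraries sufficed, also chosen after seeing the data. Members differing between libraries numbered 2 after thinning (Nkg7 and Ccl5), and 1 to 4 with a library left out, 1 without library 3. With a fold of 2, the genes called fell to 96 with Il2ra and 172 with the receptor-induced genes, against 711 and 625. Leaving out a gene's richest cell, or its 10 richest in finer or single-gene splits, was also chosen after seeing the data. The causes were not tested. In the authors' normalized values the highest library stood 7.12-fold over the lowest for Nkg7, and Gzmb and Cxcr6 were not analysed there. The comparison of a knockout with its wild type was not run. Gzmb and Cxcr6 had too few UMIs at this depth for a call.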

Other observations

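A few single cells held several cytotoxic genes at once, and they were chosen after their values were seen. A cell of library 2 with 6368 UMIs held 25 of the 36 Gzmb UMIs, with 5 of Cxcr6, 5 of Nkg7, 1 of Ccl5, 4 of Il2ra and 7 of Cd3e, and no UMI of Klrb1c, Klrd1 or Klrk1. Another cell of library 2, with 3460 UMIs, held 13 UMIs of Nkg7, 8 of Cxcr6, 4 of Gzmb and 3 of Xcl1. It was the only cell with Klrb1c (2 UMIs) and Klrk1 (7 UMIs), and it had 5 UMIs of Klrd1, 4 of Fcer1g and 1 of Zbtb16, with none of Il2ra, Foxp3 or Cd4. The cell richest in Gzma, in library 1, had 32 Gzma UMIs among 6695, with 7 of Cd3e and none of Dntt, Rag1 or Cd8a. The cell richest in Xcl1, in library 2, had 80 Xcl1 UMIs among 10584, with 16 of Nkg7 and 2 of Il2ra.

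Cells left out of the authors' normalized table, which is named for G1 cells, held Nkg7 and Ccl5 more often than the cells in it. Nkg7 was in 19.2% of the 1042 cells left out and in 13.5% of the 7231 kept, and Ccl5 was in 9.98% and 5.63%. The level of Nkg7 went the other way, at 107 CPM in the cells left out and 146 CPM in the cells kept, so its share and its level give opposite orders. Ccl5 stood at 48.2 CPM in the cells left out and 41.4 CPM in the cells kept, the same order as its share. Depth was not matched in these values.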
